A study of Mus musculus with 18 samples.

Results

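The B-cell receptor complex and its companion surface genes were followed in mouse bone marrow through 9 genes: Cd79a, Cd79b, Blnk, Cd22, Ms4a1, Cd37, Fcmr, Ltb and Tnfrsf13c. They were taken by symbol from 18194 genes that had a probeset annotated to that gene alone, and the probeset with the highest mean over all arrays stood for the gene. All 9 were measured, on 12 such probesets, and all 9 lay above the filter on low values that left 14505 genes for testing.

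Marrow cells of 18 C57Bl6 mice were flash frozen, and their total RNA was hybridised to Affymetrix arrays, 1 array per mouse. The mice were 6 CCAT2-GT animals, labelled DRAI+, 4 CCAT2-G and 4 CCAT2-T animals, which form the DRAI- group of 8, and 4 wild-type (WT) animals with no DRAI status. The CCAT2-G and CCAT2-T mice were engineered to overexpress CCAT2, a long non-coding RNA, in its G or its T form throughout the body, and the series concerns myeloid malignancies. The labels call the CCAT2-GT marrow overexpressing as well. They do not spell out what DRAI stands for, nor the makeup of the CCAT2-GT genotype. Mouse identifiers carry the letter G in some CCAT2-GT mice and T in the others, which the labels do not explain. The letter was not used here. The sources used here do not give the promoter, the number of founder lines, or the age and sex of the mice. No treatment other than the genetic change is named.

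The B-cell receptor is a membrane immunoglobulin held together with the signalling chains Cd79a and Cd79b. Antigen binding leads to phosphorylation of tyrosines in the tails of these chains, to recruitment of the kinase Syk and to assembly of enzymes on the adaptor Blnk. Co-receptors such as Cd22 dampen the signal, and receptors of the tumour necrosis factor family such as Tnfrsf13c keep maturing B cells alive. Marrow is where B cells are made, so both precursors and B cells with a complete receptor contribute to RNA of whole marrow. In such bulk RNA fewer cells of a type and less RNA per cell cannot be told apart.

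The arrays had medians of 4.27 to 4.40 on the log2 scale of the deposited values. Their interquartile ranges were 2.90 to 3.07 on 5 arrays, those of CCAT2-T replicates 1 and 2, CCAT2-G replicate 1 and WT replicates 1 and 2, and 3.15 to 3.36 on the other 13. No CCAT2-GT mouse was among the 5, and the labels name no batch. Stroma, bone and endothelium markers were highest in CCAT2-GT replicates 4 and 6 and WT replicate 4, with mean log2 levels of 6.96, 7.57 and 6.84. Xist, the RNA of the inactive X chromosome, was above 8 on the log2 scale in 3 of 6 CCAT2-GT, 1 of 8 DRAI- and 0 of 4 WT mice. Defining markers of the labelled tissue were high in every mouse, with neutrophil markers averaging 12.1 to 12.8 and erythroid markers 10.1 to 11.0. There is no read depth for arrays, and precision is limited by the number of mice.

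The promoters of the member genes are shown first, because the letters CAGGTG are the one searched motif that all matched members share. RefSeq's promoter table for GRCm38.p6 runs from 250 bases before to 50 bases after each gene's start and matched 7 of the 9 members, Cd79b and Ms4a1 being the others. CAGGTG, the core of the E-box read by E proteins such as E2A, or its reverse complement CACCTG, was found in 7 of 7 member promoters. The same letters were found in 20.2% of all 32851 promoters of that length. The start used for Cd22 and Cd37 lies inside the annotated span of the gene. The whole Cd79a promoter is given first and then windows around the match in the other 6, each 5′ to 3′ on the gene's strand with the E-box letters in capitals:
Cd79a, chr7:24897247-24897546, plus strand: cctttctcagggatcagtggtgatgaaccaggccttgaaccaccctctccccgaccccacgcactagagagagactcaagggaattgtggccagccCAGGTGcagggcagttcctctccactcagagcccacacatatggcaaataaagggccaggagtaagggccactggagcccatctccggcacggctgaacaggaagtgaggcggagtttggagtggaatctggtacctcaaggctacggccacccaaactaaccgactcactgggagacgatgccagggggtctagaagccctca
Blnk, chr19:40994364-40994393, minus strand: aacctggcaacaCACCTGatcataaaagag
Cd22, chr7:30879256-30879278, minus strand: ccctaCACCTGttcctggtcacc
Cd37, chr7:45238997-45239026, minus strand: ctgagctatggaCACCTGcgaggaacccat
Fcmr, chr1:130865801-130865826, plus strand: gtagaaggctccCAGGTGatcggtgt
Ltb, chr17:35194429-35194458, plus strand: ccgggcagggggCAGGTGtgtgggtctgcg
Tnfrsf13c, chr15:82224459-82224488, minus strand: atgcaggaaccaCAGGTGaaagaggtctgg

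The match began 154 bases before the start in Cd79a, 160 in Blnk, 245 in Cd22, 175 in Cd37, 66 in Ltb and 96 in Tnfrsf13c. In Fcmr it began 36 bases after the start. These positions have no common spacing, and a match of letters is a description of the promoter and not a binding site.

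Of the other 5 motifs searched on both strands, each was found in 1 to 3 of the 7 promoters. CAGCTG, another E-box core, was in 2 (Fcmr and Tnfrsf13c) and in 16.3% of all promoters. GGAAGT, an Ets core, was in 3 (Cd79a, Cd37 and Blnk) and in 23.8% of all promoters. The palindrome bound by EBF factors, TCCC and GGGA with any 2 bases between them, was in Cd22 alone, as TCCCTGGGGA beginning 49 bases before the start, and in 0.904% of all promoters. These are letters in the window only. The octamer ATGCAAAT, known from immunoglobulin promoters, and the NF-kB motif of the kappa light chain enhancer were each in 1 member promoter. They were found in 1.74% and 0.155% of all promoters. Both were found as the reverse complement of the motif searched, in capitals in these windows:
Blnk octamer, chr19:40994332-40994363, minus strand: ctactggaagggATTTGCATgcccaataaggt
Ltb NF-kB motif, chr17:35194408-35194441, plus strand: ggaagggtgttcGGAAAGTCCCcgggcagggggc

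All 9 genes had a lower mean in CCAT2-GT marrow than in DRAI- marrow and than in WT marrow, but no single gene passed the test in either comparison. The test was limma's moderated fit on log2 values with Benjamini and Hochberg's adjustment over all 14505 genes at 0.05. Against DRAI- mice the differences ran from -2.32 for Cd79a to -0.82 for Cd37, with a median of -1.35 for the members and -0.0072 for all genes tested. Adjusted p was 0.456 for 8 members and 0.486 for Blnk with limma, and 0 of 14505 genes passed (0% called). Against WT mice they ran from -1.62 for Cd79a to -0.51 for Cd37, with a median of -0.97 against -0.0017 for all genes, adjusted p was 1.00 for each with limma, and again 0 of 14505 passed (0% called). Both comparisons share the same 6 CCAT2-GT mice, so they are not independent of each other.

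Without adjustment, limma gave p under 0.05 for 9 of 9 members as lower in CCAT2-GT than in DRAI- marrow, where 5.73% of all genes tested did so. Unadjusted p lay between 0.00114 for Ltb and 0.0184 for Blnk. Against WT, 3 of 9 members (Ltb, Ms4a1 and Cd79b) had an unadjusted p under 0.05 as lower, where 1.45% of all genes did. Lower by any amount were 9 of 9 members in each comparison, where 51.7% of all genes were lower against DRAI- and 50.5% against WT. In order of difference against DRAI- mice, which takes no account of the spread between mice, Cd79a was the lowest of all 14505 genes. Ms4a1 stood at rank 5 and Fcmr at rank 7. All 9 members were among the 100 lowest genes there, and 8 of 9 were so against WT. The members varied together over the arrays, with Pearson's r of 0.636 to 0.986 between pairs. Counts of members, here and below, are therefore not counts of independent observations. None of the 9 separated the groups completely: CCAT2-GT lay wholly below DRAI- for 0 of 9 members (0.0896% of all genes) and wholly below WT for 0 of 9 (0.414%).

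**Figure D1:**
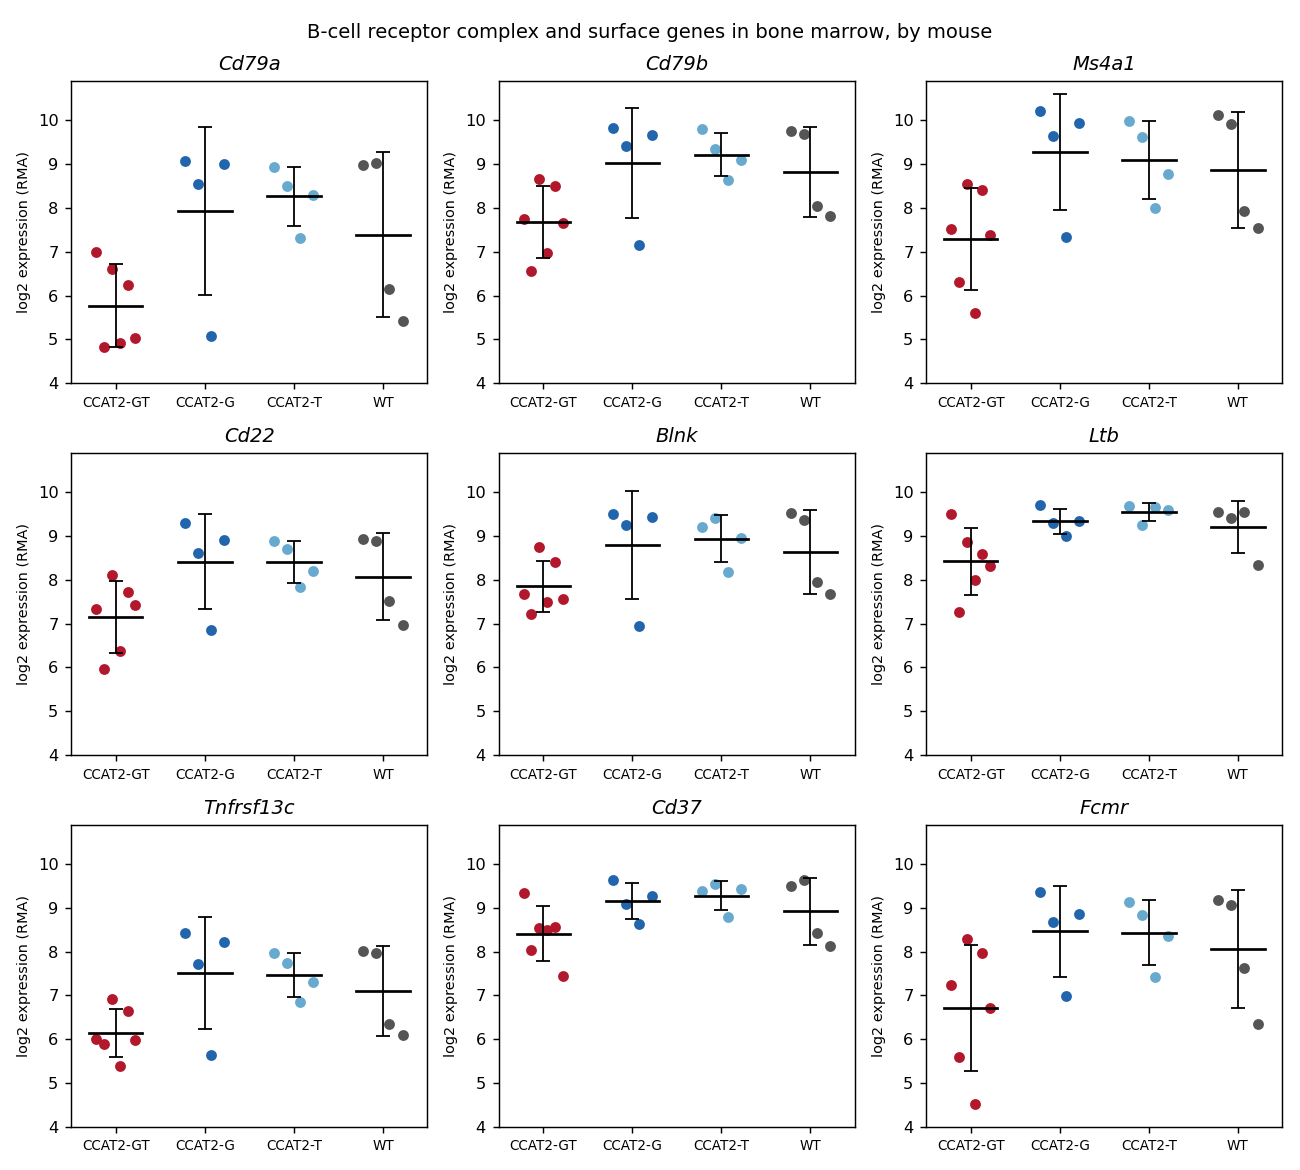
Log2 level of each of the 9 genes in each mouse, 1 panel per gene, with CCAT2-GT, CCAT2-G, CCAT2-T and WT mice from left to right a bar at each group's mean and error bars of 1 SD. The CCAT2-GT mean is the lowest of the 4 groups in every panel, and single CCAT2-GT mice lie among the others (replicate 1 at 9.51 for Ltb). CCAT2-G replicate 3 stands below the other CCAT2-G mice (Cd79a at 5.07 against 8.55 to 9.08), and WT mice form a higher and a lower pair for every gene except Ltb.

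Cd79a (probeset 1418830_at, gene at chr7:24897497-24901858 in GRCm38.p6) encodes the Ig-alpha chain, which carries an activation motif in its tail and is needed for the receptor to reach the surface. In CCAT2-GT mice its log2 level was 4.83 at the lowest, 5.64 at the median and 6.99 at the highest. In DRAI- mice the lowest, median and highest were 5.07, 8.52 and 9.08, and in the 4 WT mice it was 8.99, 9.03, 6.15 and 5.42. All 6 CCAT2-GT mice were below the DRAI- median and below the WT mean, yet CCAT2-G replicate 3 and WT replicates 3 and 4 lay inside the CCAT2-GT range. The means were 5.77 ± 0.95 in CCAT2-GT marrow (SD, n = 6) and 8.10 ± 1.34 in DRAI- marrow (SD, n = 8), a difference of -2.32 (SE 0.65), which is 0.200 of the DRAI- level (limma, adjusted p = 0.456). The WT mean was 7.39 ± 1.89 (SD, n = 4), and CCAT2-GT differed from it by -1.62 (SE 0.78) (limma, adjusted p = 1.00).

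Cd79b (1417640_at, chr11:106311341-106314562) encodes Ig-beta, the chain that pairs with Ig-alpha. Its log2 levels had a lowest, median and highest of 6.57, 7.70 and 8.66 in CCAT2-GT mice and 7.16, 9.38 and 9.84 in DRAI- mice, and 9.75, 9.68, 8.05 and 7.82 in the 4 WT mice. CCAT2-GT replicates 3 and 5 were the high ones of their group. All 6 lay below the DRAI- median and 2 below every DRAI- mouse, so the groups overlapped. The means were 7.69 ± 0.82 in CCAT2-GT marrow (SD, n = 6), 9.12 ± 0.89 in DRAI- marrow (SD, n = 8) and 8.82 ± 1.03 in WT marrow (SD, n = 4). CCAT2-GT differed by -1.44 (SE 0.43) from DRAI- (limma, adjusted p = 0.456) and by -1.14 (SE 0.52) from WT (limma, adjusted p = 1.00). The 2 chains of the receptor thus had the same order of groups, and across the 18 arrays their levels correlated at Pearson's r = 0.956, given as a description.

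Blnk (1451780_at, chr19:40928927-40994221) encodes the adaptor that brings Btk and phospholipase C-gamma to the activated receptor, and its promoter holds the octamer match. The lowest, median and highest Blnk levels (log2) were 7.22, 7.62 and 8.75 in CCAT2-GT and 6.95, 9.23 and 9.50 in DRAI- mice, and 9.53, 9.37, 7.96 and 7.68 in the 4 WT mice. The lowest Blnk value of all 18 mice belonged to CCAT2-G replicate 3 and not to a CCAT2-GT mouse, so 0 CCAT2-GT mice lay below the DRAI- range. The means were 7.85 ± 0.59 in CCAT2-GT marrow (SD, n = 6), 8.86 ± 0.88 in DRAI- marrow (SD, n = 8) and 8.64 ± 0.95 in WT marrow (SD, n = 4). CCAT2-GT differed by -1.01 (SE 0.39) from DRAI- (limma, adjusted p = 0.486) and by -0.79 (SE 0.47) from WT (limma, adjusted p = 1.00).

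Cd22 (1419768_at, chr7:30865404-30880342) encodes a lectin that binds sialic acid and recruits the phosphatase SHP-1 to damp receptor signals. For Cd22 the lowest, median and highest log2 levels were 5.97, 7.38 and 8.12 in CCAT2-GT and 6.84, 8.65 and 9.31 in DRAI- mice, and 8.92, 8.89, 7.51 and 6.97 in the 4 WT mice. CCAT2-GT replicates 2 and 4 lay below every DRAI- mouse, and the other 4 overlapped that range. The means were 7.16 ± 0.82 in CCAT2-GT marrow (SD, n = 6), 8.41 ± 0.78 in DRAI- marrow (SD, n = 8) and 8.07 ± 0.99 in WT marrow (SD, n = 4). CCAT2-GT differed by -1.26 (SE 0.41) from DRAI- (limma, adjusted p = 0.456) and by -0.91 (SE 0.48) from WT (limma, adjusted p = 1.00). The other Cd22 probeset, 1419769_at, had the same signs, with -1.01 and -0.73.

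Ms4a1 (1423226_at, chr19:11249679-11266149) encodes CD20, a membrane protein of B cells that therapeutic antibodies bind in humans. Lowest, median and highest log2 levels of Ms4a1 were 5.60, 7.46 and 8.55 in CCAT2-GT and 7.33, 9.63 and 10.22 in DRAI- mice, and 10.12, 9.91, 7.94 and 7.54 in the 4 WT mice. All 6 CCAT2-GT mice lay below the WT mean and the DRAI- median, with 2 below every DRAI- mouse. The means were 7.30 ± 1.16 in CCAT2-GT marrow (SD, n = 6), 9.19 ± 1.05 in DRAI- marrow (SD, n = 8) and 8.88 ± 1.33 in WT marrow (SD, n = 4). CCAT2-GT differed by -1.90 (SE 0.55) from DRAI- (limma, adjusted p = 0.456) and by -1.58 (SE 0.66) from WT (limma, adjusted p = 1.00). The second probeset, 1450912_at, gave -2.13 and -1.67.

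Cd37 (1419206_at, chr7:45233632-45239340) encodes a tetraspanin that organises other surface proteins and is found on B cells most of all but also on other leukocytes. Across mice, Cd37 had lowest, median and highest log2 levels of 7.45, 8.52 and 9.34 in CCAT2-GT and 8.64, 9.32 and 9.63 in DRAI- mice, and 9.50, 9.62, 8.41 and 8.13 in the 4 WT mice. Of the CCAT2-GT mice 5 lay below every DRAI- mouse, and replicate 1, at 9.34, lay among the middle DRAI- mice. The means were 8.40 ± 0.63 in CCAT2-GT marrow (SD, n = 6), 9.22 ± 0.36 in DRAI- marrow (SD, n = 8) and 8.92 ± 0.76 in WT marrow (SD, n = 4). CCAT2-GT differed by -0.82 (SE 0.27) from DRAI- (limma, adjusted p = 0.456) and by -0.51 (SE 0.32) from WT (limma, adjusted p = 1.00). The other Cd37 probeset, 1425736_at, differed by -0.58 from DRAI- in the same direction.

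Fcmr (1429889_at, chr1:130865777-130880790) encodes the Fc receptor for IgM, which binds secreted and membrane IgM. Levels of Fcmr on the log2 scale were, at the lowest, median and highest, 4.53, 6.98 and 8.28 in CCAT2-GT and 6.98, 8.75 and 9.37 in DRAI- mice, and 9.18, 9.07, 7.63 and 6.34 in the 4 WT mice. CCAT2-GT mice spread over more of this gene's range than DRAI- mice did, with 3 of them below every DRAI- mouse. The means were 6.72 ± 1.44 in CCAT2-GT marrow (SD, n = 6), 8.45 ± 0.84 in DRAI- marrow (SD, n = 8) and 8.05 ± 1.34 in WT marrow (SD, n = 4). CCAT2-GT differed by -1.73 (SE 0.56) from DRAI- (limma, adjusted p = 0.456) and by -1.33 (SE 0.67) from WT (limma, adjusted p = 1.00).

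Ltb and Tnfrsf13c belong to the tumour necrosis factor system. Ltb (1419135_at, chr17:35194507-35196305) encodes lymphotoxin beta, a ligand that holds lymphotoxin at the cell membrane and organises lymphoid tissue, and T cells make it as well. Its lowest, median and highest log2 levels were 7.26, 8.45 and 9.51 in CCAT2-GT and 9.01, 9.46 and 9.71 in DRAI- mice, and 9.56, 9.42, 9.54 and 8.33 in the 4 WT mice. CCAT2-GT replicate 1 was the exception, as for Cd37, while the other 5 lay below all 8 DRAI- mice. The means were 8.42 ± 0.77 in CCAT2-GT marrow (SD, n = 6), 9.44 ± 0.26 in DRAI- marrow (SD, n = 8) and 9.21 ± 0.59 in WT marrow (SD, n = 4). CCAT2-GT differed by -1.02 (SE 0.27) from DRAI- (limma, adjusted p = 0.456) and by -0.79 (SE 0.32) from WT (limma, adjusted p = 1.00).

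Tnfrsf13c (1419307_at, chr15:82221742-82224380) encodes the receptor for the survival factor BAFF and appears as B cells mature. BAFF receptor levels (log2) were, at the lowest, median and highest, 5.39, 5.99 and 6.92 in CCAT2-GT and 5.64, 7.74 and 8.42 in DRAI- mice, and 8.01, 7.97, 6.35 and 6.09 in the 4 WT mice. All 6 CCAT2-GT mice were below the WT mean and the DRAI- median, although only replicate 4 was below every DRAI- mouse. The means were 6.14 ± 0.55 in CCAT2-GT marrow (SD, n = 6), 7.48 ± 0.90 in DRAI- marrow (SD, n = 8) and 7.11 ± 1.03 in WT marrow (SD, n = 4). CCAT2-GT differed by -1.35 (SE 0.40) from DRAI- (limma, adjusted p = 0.456) and by -0.97 (SE 0.48) from WT (limma, adjusted p = 1.00).

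**Figure D2:**
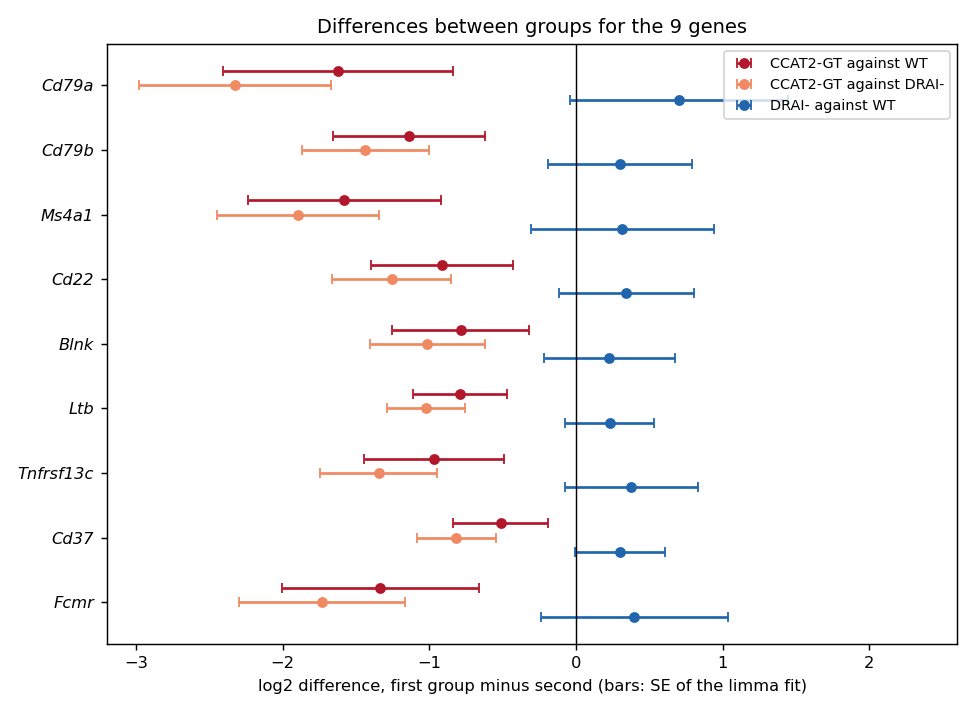
Log2 difference of each gene with its SE from the fit, for CCAT2-GT against DRAI-, CCAT2-GT against WT and DRAI- against WT. All 18 differences of CCAT2-GT lie below 0, from -2.32 to -0.51, and the 9 of DRAI- against WT lie above it, from 0.23 to 0.70.

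WT mice also differed among themselves. For every one of the 9 genes, 2 of the 4 WT mice lay at or below the highest CCAT2-GT mouse. WT replicates 1 and 2 averaged 9.01 for Cd79a, 10.01 for Ms4a1 and 9.12 for Fcmr, while WT replicates 3 and 4 averaged 5.78, 7.74 and 6.98. For Ltb the means of the same pairs were 9.49 and 8.93. WT replicates 1 and 2 are both among the 5 arrays of narrow interquartile range. On those 5 arrays the mean of the 9 genes, each centred on its own mean, was 0.85 to 1.31, and on the 13 wider arrays it was -1.74 to 1.04, so array spread moved with the level of these genes.

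Among the 13 wider arrays (6 CCAT2-GT, 5 DRAI- and 2 WT) the median difference of the 9 genes was -0.09 for CCAT2-GT against WT, with Blnk at 0.03 and Cd37 at 0.13. CCAT2-GT against DRAI- kept a median of -1.01 there, from -1.88 for Cd79a to -0.64 for Cd37. Fitted with those 5 arrays as a block, the medians were -0.55 against WT and -0.91 against DRAI-, and no member passed in any of these fits. Without the 4 arrays of high Xist the medians were -1.73 against DRAI- and -1.32 against WT, and without the 3 arrays rich in stroma markers they were -1.13 and -1.15. Array weights, which count arrays of large residuals less, were the one alternative in which members passed: 8 of 9 did so against WT, all but Fcmr (456 of 14505 genes in all), with Cd79a at -2.64 (limma, adjusted p = 0.023). Against DRAI- 0 of 9 passed with the same weights.

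**Figure D3:**
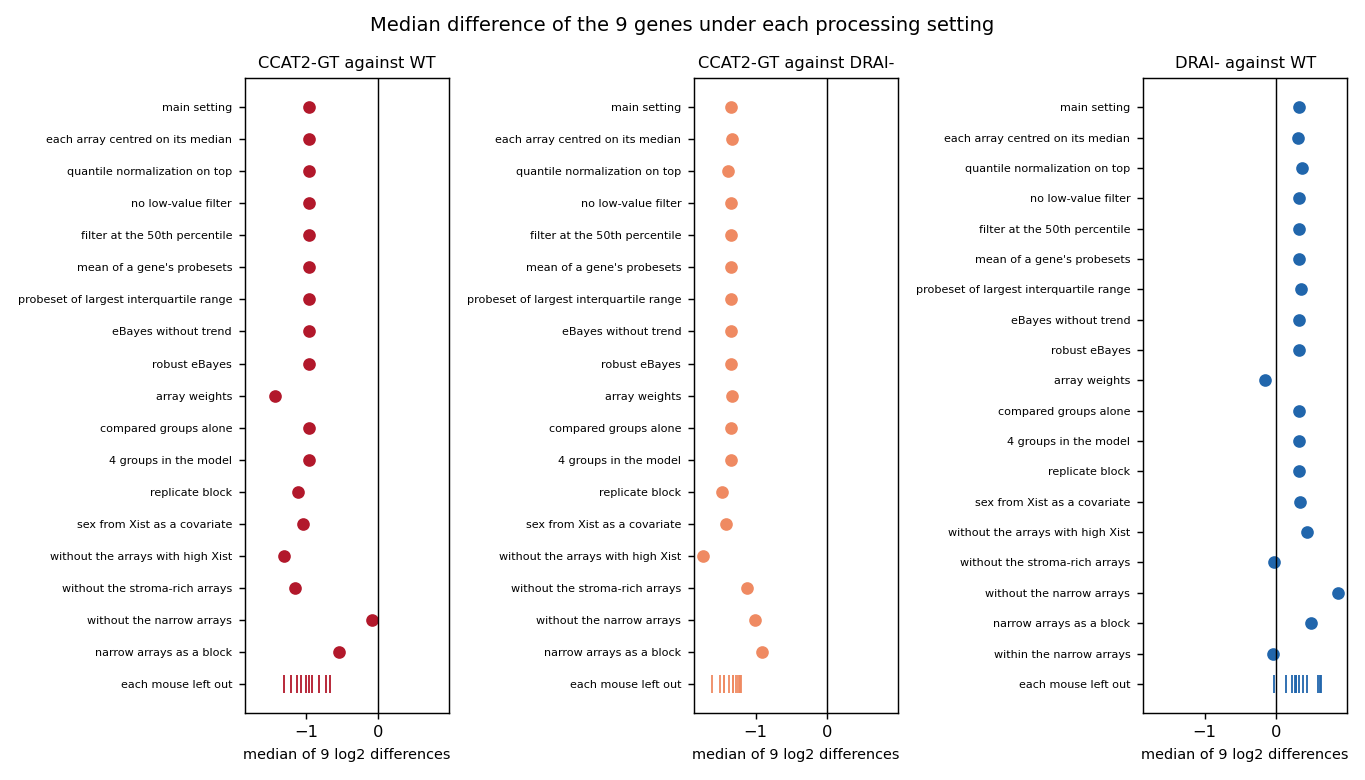
Median log2 difference of the 9 genes under each alternative setting, for CCAT2-GT against WT, CCAT2-GT against DRAI- and DRAI- against WT, with a tick for each mouse left out. The medians of CCAT2-GT against DRAI- lie between -1.73 and -0.91 and those against WT reach -0.09 without the narrow arrays.

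The 9 genes varied together from mouse to mouse. Over the 18 arrays the highest level was 28.6 times the lowest for Fcmr, 24.7 times for Ms4a1 and 18.9 times for Cd79a, but 4.52 times for Cd37. CCAT2-G replicate 1 was the highest mouse for 8 genes and WT replicate 1 for Blnk. The lowest mouse was CCAT2-GT replicate 2 for Cd79a, Cd79b, Cd22 and Ltb, CCAT2-GT replicate 4 for Ms4a1, Tnfrsf13c and Fcmr, CCAT2-GT replicate 6 for Cd37, and CCAT2-G replicate 3 for Blnk. The extremes were thus shared by a few animals, not spread over the mice.

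As a description over the 18 arrays, which share the groups and the differences in array spread, Pearson's r lay between 0.887 and 0.986 for the 21 pairs among the 7 genes other than Ltb and Cd37. The 15 pairs that include Ltb or Cd37 had r of 0.636 to 0.890. Cd79b and Cd22 were the closest pair and Blnk and Ltb the least close. Against the mean of the other 8 genes, r was 0.982 for Cd79b, 0.814 for Cd37 and 0.769 for Ltb. CCAT2-GT replicate 1 shows the difference: it had Ltb at 9.51 and Cd37 at 9.34, levels of DRAI- and WT mice, beside Cd79a at 6.99 and Tnfrsf13c at 6.00.

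**Figure D4:**
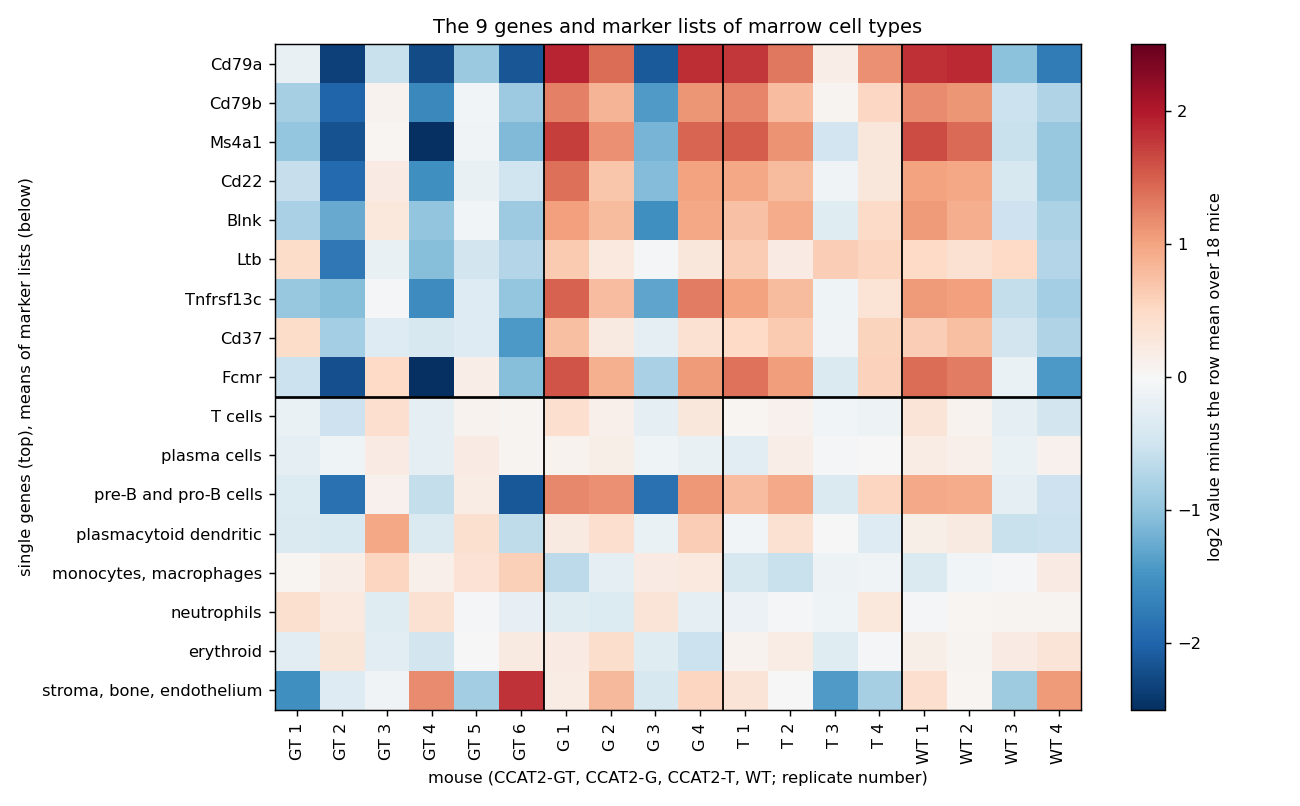
Level of each gene in each mouse as a log2 deviation from that gene's mean over the 18 arrays, with mice in columns by group, the 9 genes in the upper rows and the means of the marker lists in the lower rows. The columns of CCAT2-GT replicates 2 and 4 are low for all 9 genes, and that of CCAT2-GT replicate 1 is above the mean for Ltb and Cd37.

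The 8 named genes whose levels followed the mean of the 9 members most closely over the 18 arrays were Ptprcap (r = 0.981), Blk and Jakmip1 (both 0.977), Foxo1 and Srpk3 (both 0.974), Ablim1 (0.973), Fcer2a and Cpm (both 0.972). Ptprcap encodes a partner of the phosphatase CD45, Foxo1 a transcription factor, Fcer2a the low-affinity IgE receptor and Cpm a membrane carboxypeptidase. Srpk3, a kinase of splicing factors, differed by -1.53 (SE 0.45) in CCAT2-GT against DRAI- and by -1.43 (SE 0.54) against WT marrow. Fcer2a differed by -1.32 (SE 0.45) and -1.06 (SE 0.54) in the same comparisons. None of the 8 passed (limma, adjusted p = 0.456 against DRAI- and 1.00 against WT for each). They were chosen for following the members over these same arrays, so their differences between the groups follow from the choice and are no separate evidence.

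Of 40 listed genes of B-cell receptor signalling, 36 were measured. In CCAT2-GT against DRAI- marrow 26 were lower and 10 higher, with a median of -0.18, and 0 passed (9 lower and 2 higher at an unadjusted p under 0.05, where 5.73% of all genes were lower and 3.84% higher). Against WT 25 were lower and 11 higher, with a median of -0.11, and 0 passed (1 lower at an unadjusted p under 0.05, where 1.45% of all genes were). By any amount, 51.7% of all genes were lower against DRAI- and 50.5% against WT. The median of the list is nearer to 0 than that of the 9 members in both comparisons. Cd72, a lectin-like co-receptor of B cells, averaged 6.42 ± 0.74 in CCAT2-GT marrow (SD, n = 6) and 7.73 ± 0.96 in DRAI- marrow (SD, n = 8) and differed by -1.31 (SE 0.43). In WT marrow its mean was 7.42 ± 0.95 (SD, n = 4). The Src-family kinase Blk differed by -1.22 (SE 0.41) from DRAI- and -0.95 (SE 0.49) from WT. Siglecg, an inhibitory lectin related to Cd22, differed by -0.86 (SE 0.27) and -0.67 (SE 0.33), and the adaptor Grap by -0.73 (SE 0.23) and -0.63 (SE 0.28). These 4 were chosen for the smallest p in the list, and each missed the threshold (limma, adjusted p = 0.456 against DRAI- and 1.00 against WT). Grap lay near the low-value filter of 3.30, with a mean of 3.98 in CCAT2-GT marrow and 3.24 in CCAT2-GT replicate 2.

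Of 22 listed ligands, receptors and signal carriers of the BAFF, CD40 and lymphotoxin pathways, 19 were measured. In CCAT2-GT against DRAI- marrow 14 were lower and 5 higher, with a median of -0.08 and 1 lower at an unadjusted p under 0.05 (limma). Of all genes, 51.7% were lower there, 5.73% at that threshold. Against WT 13 were lower and 6 higher, with a median of -0.06, where 50.5% of all genes were lower, and 0 passed in either comparison. Tnfrsf13b, which like Tnfrsf13c binds BAFF, averaged 7.80 ± 0.36 in CCAT2-GT marrow (SD, n = 6), 8.07 ± 0.20 in DRAI- marrow (SD, n = 8) and 8.11 ± 0.18 in WT marrow (SD, n = 4). The co-stimulatory receptor Cd40 differed by -0.43 (SE 0.22) from DRAI- and by -0.47 (SE 0.26) from WT. Nfkb2, the precursor of the NF-kB subunit that these receptors activate, differed by -0.31 (SE 0.14) from DRAI- and by -0.06 (SE 0.17) from WT. The adaptor Traf2 was at -0.02 (SE 0.08) and -0.12 (SE 0.10), and the ubiquitin ligase Birc3 at -0.26 (SE 0.13) and -0.16 (SE 0.16). Ltb and Tnfrsf13c stood further below DRAI- and WT than each of these 5 genes, given as a description.

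Of 24 relatives of the members (other Ms4a genes, tetraspanins and sialic-acid-binding lectins), 21 were measured. In CCAT2-GT against DRAI- marrow 9 were lower and 12 higher, with a median of 0.22, and against WT 5 were lower and 16 higher, with a median of 0.09. By any amount, 51.7% of all genes were lower against DRAI- and 50.5% against WT. None of the relatives passed in either comparison. At an unadjusted p under 0.05 (limma) there was 1 lower and 1 higher gene against DRAI- and 0 against WT. At that threshold 5.73% of all genes were lower and 3.84% higher against DRAI-, and 1.45% were lower against WT. Ms4a6d, a relative of Ms4a1 found in macrophages, averaged 7.22 ± 0.98 in CCAT2-GT marrow (SD, n = 6) and 6.15 ± 0.80 in WT marrow (SD, n = 4). The difference was 1.07 (SE 0.58) against WT and 0.48 (SE 0.49) against DRAI-, and Ms4a6b was at 0.42 (SE 0.22) and 0.33 (SE 0.19). The tetraspanin Cd9, known from platelets and other cells, differed by 0.57 (SE 0.22) from DRAI- and by 0.34 (SE 0.26) from WT, while Tspan33 was at -0.03 (SE 0.16) and -0.31 (SE 0.19). The myeloid lectin Siglece differed by -0.39 (SE 0.16) from DRAI- and by 0.02 (SE 0.19) from WT.

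Markers of other cell types were set beside the members. The mean log2 level of 8 pre-B and pro-B cell markers had a lowest, median and highest of 4.84, 6.48 and 7.13 in CCAT2-GT, 5.09, 7.82 and 8.16 in DRAI- and 6.44, 7.31 and 7.91 in WT mice. Of these 8 genes, 8 were lower in CCAT2-GT than in DRAI- (median -1.33, 6 of them at an unadjusted p under 0.05 with limma). Lower than in WT were 7 (median -1.10), and 0 passed. Of all genes, 51.7% were lower against DRAI-, 5.73% at an unadjusted p under 0.05, and 50.5% were lower against WT. Rag1, a subunit of the recombinase that joins immunoglobulin gene segments, differed by -2.30 from DRAI- and by -2.26 from WT. B-cell precursor markers thus stood low in the same group as the members, and their part in the members' difference was not tested.

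Across mice the precursor list and the members mostly rose and fell together, though not in every mouse. CCAT2-G replicate 1 was the highest in both, with a member mean of 1.31 and a precursor level of 8.16. Low in both was CCAT2-G replicate 3, at -1.07 and 5.09. CCAT2-GT replicate 4 had a member mean of -1.73 with a precursor level of 6.35, and CCAT2-GT replicate 6 had a member mean of -1.08 with a precursor level of 4.84. CCAT2-GT replicate 2 was low in both, at -1.74 and 5.09. In these 3 animals the order by the members was not the order by the precursors.

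The 10 T-cell markers, whose cells also make Ltb, had a lowest, median and highest mean level of 5.17, 5.64 and 6.11 in CCAT2-GT, 5.47, 5.77 and 6.11 in DRAI- and 5.23, 5.62 and 6.00 in WT mice. The 8 plasma-cell markers had 6.67, 6.87 and 7.09 in CCAT2-GT, 6.62, 6.87 and 7.06 in DRAI- and 6.72, 7.00 and 7.07 in WT mice. Both lists overlapped across all groups, with median gene differences of -0.17 and 0.06 against DRAI- and -0.02 and 0.0021 against WT. The plasma-cell genes went both ways against DRAI-, with 2 lower and 2 higher at an unadjusted p under 0.05 (limma). Of all genes, 5.73% were lower and 3.84% higher there. Against WT 2 plasma-cell genes were higher at an unadjusted p under 0.05 (limma), where 171 of 14505 genes were, and 0 passed in either comparison. Monocyte and macrophage markers (6 of 8 measured) stood higher: 7.92, 8.13 and 8.46 in CCAT2-GT, 7.20, 7.69 and 8.12 in DRAI- and 7.51, 7.82 and 8.07 in WT mice. All 6 were higher than in DRAI- (median 0.59, 4 at an unadjusted p under 0.05), 5 of 6 were higher than in WT (median 0.34), and 0 passed. Of all 14505 genes, 7010 were higher than in DRAI- by any amount and 7177 higher than in WT. Plasmacytoid dendritic cell markers (6 of 6 measured) had 5.40, 5.67 and 7.00 in CCAT2-GT, 5.72, 6.16 and 6.65 in DRAI- and 5.48, 5.85 and 6.26 in WT mice. Of these 6, 5 were lower than in DRAI- (median -0.28) and 2 were lower than in WT (median 0.13). Neutrophil markers were higher in 7 of 9 against DRAI- (median 0.07) and in 4 of 9 against WT (median -0.03). Erythroid markers (6 of 8 measured) were lower in 3 of 6 against DRAI- (median -0.05) and in 6 of 6 against WT (median -0.29). Stroma, bone and endothelium markers (10 of 12 measured) were lower in 3 of 10 against DRAI- (median 0.17) and in 4 of 10 against WT (median 0.04). No gene of these 4 lists passed. The values are RMA log2 levels, on which no marker has a true zero, and the part of these other cells in the members' values was not tested.

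**Figure D5:**
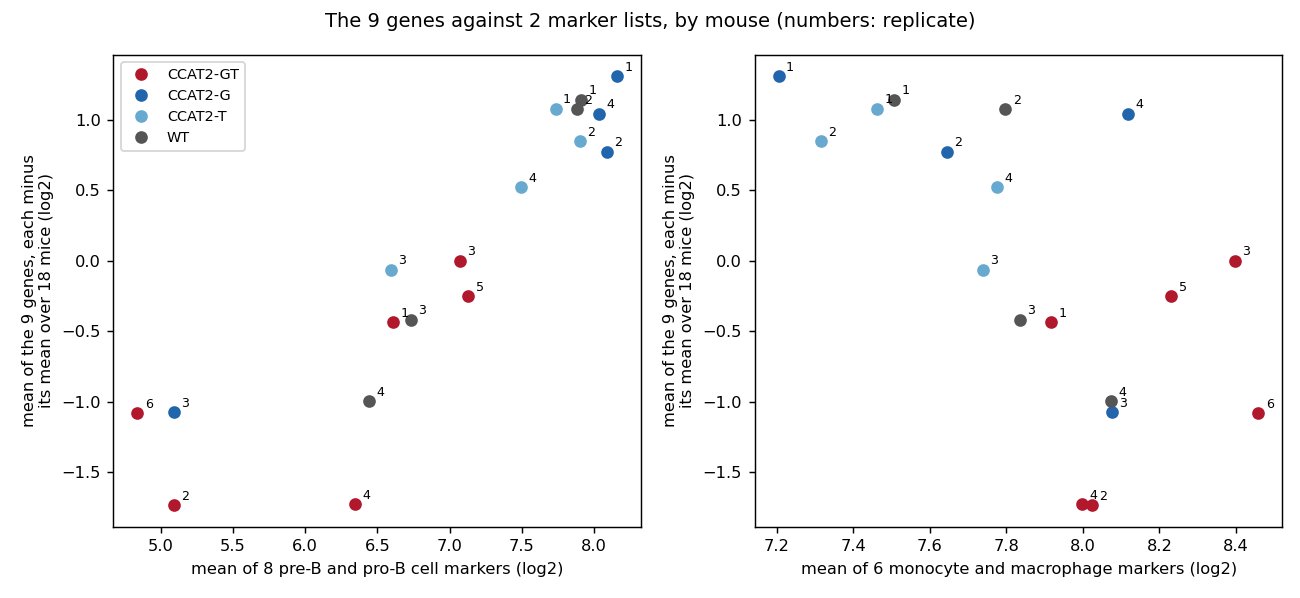
Mean of the 9 genes, each centred on its mean over arrays, against the mean log2 level of the pre-B and pro-B cell markers (left) and of the monocyte and macrophage markers (right), with 1 point per mouse, colours for groups and replicate numbers beside the points. Mice high in the precursor markers are mostly high in the members, with CCAT2-G replicate 1 the highest in both (8.16 and 1.31). CCAT2-GT replicate 6 has the lowest precursor level, 4.84, with a member mean of -1.08, and CCAT2-GT replicate 4 has a member mean of -1.73 with a precursor level of 6.35.

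DRAI- mice had higher means than WT mice for all 9 genes, by 0.70 (SE 0.74) for Cd79a and by 0.23 to 0.40 for the other 8, each within 1 SE. The median was 0.32 for the members and 0.00079 for all genes. Adjusted p was 0.999 for each with limma and 0 of 14505 genes passed (0% called). At an unadjusted p under 0.05, 0 of 9 members were higher, where 0.993% of all genes were. Higher by any amount were 9 of 9 members and 50.2% of all genes. The sign turned under 4 alternatives: the median of the 9 was -0.04 without WT replicate 4 and without the 3 arrays rich in stroma markers, -0.05 within the 5 narrow arrays and -0.16 with array weights. Leaving out WT replicate 4 and leaving out the stroma-rich arrays are the same exclusion here. WT replicate 4 is the only stroma-rich array among the DRAI- and WT mice.

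Each allele on its own gave the same picture against WT, with 9 of 9 genes higher and none past the test. For CCAT2-G against WT the differences ran from 0.13 for Ltb to 0.53 for Cd79a (SE 0.88), where 53.2% of all genes were higher, and 0 of 14505 genes passed (0% called; limma, adjusted p = 1.00 for each member). For CCAT2-T against WT they ran from 0.22 for Ms4a1 to 0.87 for Cd79a (SE 0.88), where 50.5% of all genes were higher, and 0 of 14505 passed (0% called; limma, smallest member adjusted p = 0.928). Both allele comparisons use the same 4 WT mice, and without WT replicate 4 the medians of the 9 were -0.13 for CCAT2-G and 0.018 for CCAT2-T. With array weights they were -0.15 for CCAT2-G and -0.12 for CCAT2-T. Without the 3 arrays rich in stroma markers they were again -0.13 and 0.018, because WT replicate 4 is the only one of those arrays compared here.

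CCAT2-G and CCAT2-T means differed by less than the SE in each of the 9 genes. The differences, CCAT2-G minus CCAT2-T, ran from -0.34 (SE 0.88) for Cd79a to 0.18 (SE 0.74) for Ms4a1, with 5 of 9 genes lower, where 50.6% of all genes were lower. None passed (0% of all genes called; limma, smallest member adjusted p = 0.932). Cd79a was at 9.08, 8.55, 5.07 and 9.01 in the 4 CCAT2-G mice and at 8.93, 8.49, 7.32 and 8.31 in the 4 CCAT2-T mice. Replicate 3 of CCAT2-G was the low animal, so the SD was 1.92 in CCAT2-G and 0.68 in CCAT2-T (n = 4 each). Without that mouse the median difference of the 9 genes was 0.53, against -0.12 with all mice, and it was 0.14 when narrow and wide arrays were blocked and 0.0098 without CCAT2-T replicate 2.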

How the data were processed

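The authors deposited 1 table of 45101 probesets in log2 units for 18 arrays, made with RMA per the submitters' processing notes. The sources used here give neither its version nor the probe definitions, and the log2 scale was read from the values, 1.56 to 14.2. RNA was extracted with Trizol and labelled as biotinylated cRNA, per the labels' protocols. RMA equalises the arrays' probe intensities before they are summarised, so levels are relative to the other genes of an array. The deposited probeset values still differed in spread, with interquartile ranges of 2.90 to 3.36.

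The platform annotation gave 1 gene symbol to 34958 probesets, several to 932 and none to 9211, and genes were taken from those with 1. The brightest probeset stood for a gene, and genes with a mean under the 30th percentile (3.30) were left out. Groups came from the labels, which call each array a biological replicate. All 18 arrays entered 1 linear model on log2 values (limma 3.58.1, R 4.3.3, eBayes with a mean-variance trend), with 3 groups for CCAT2-GT, DRAI- and WT and 4 for the alleles. P-values were adjusted over 14505 genes by Benjamini and Hochberg's method, with a threshold of 0.05. The procedure was tested on simulated data. SE comes from the model and SD from the mice.

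The members, gene lists, motifs and alternatives were chosen with earlier results of these data known. Besides the members, the genes named are the 3 of smallest p in each of 3 lists in each comparison of CCAT2-GT, and the 8 of highest Pearson's r with the member mean, without predicted genes and immunoglobulin segments. Rag1 is named from the marker list, after its values were seen, and Xist as a check of the animals. Promoters came from RefSeq. The alternatives changed the normalization, the filter, the probeset of a gene, the test, the covariates and the mice included.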

Additional observations from a re-analysis of the deposited data

Results flagged for a closer look

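By Dixon's criterion, which chance meets in about 1 of 20 groups, 4 values of 2 mice stood apart from the rest of their group. They gave 6 flags in 45 checks of a gene within a group, because the CCAT2-G mice were checked both on their own and within DRAI-, so the checks are not independent. CCAT2-G replicate 3 had Cd79a at 5.07, where the other CCAT2-G mice had 8.55 to 9.08 and the other DRAI- mice 7.32 to 9.08. It had Cd79b at 7.16, with 9.42 to 9.84 in the other CCAT2-G mice and 8.64 to 9.84 in the other DRAI- mice. It also had Blnk at 6.95, against 9.26 to 9.50 in the other CCAT2-G mice. WT replicate 4 had Ltb at 8.33, where the other WT mice had 9.42 to 9.56. The 3 values of CCAT2-G replicate 3 come from 1 array. Without that mouse, CCAT2-GT against DRAI- gave 7 of 14505 genes past the threshold and 0 of 9 members, with Cd79a at -2.76 (limma, adjusted p = 0.0532).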

How the results depend on the processing

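No member passed the test in any comparison under any alternative except array weights, where 8 of 9 passed in CCAT2-GT against WT (456 genes in all): Cd79a at -2.64, Cd79b at -1.51, Ms4a1 at -2.02, Cd22 at -1.32, Blnk at -1.16, Ltb at -0.89, Tnfrsf13c at -1.44 and Cd37 at -0.93. Without the 5 narrow arrays the median of the 9 in that comparison moved to -0.085, with WT replicates 3 and 4 as the WT mice left. Leaving out each mouse in turn gave medians of -1.61 to -1.20 for CCAT2-GT against DRAI-, -1.31 to -0.68 for CCAT2-GT against WT and -0.037 (without WT replicate 4) to 0.63 for DRAI- against WT. The allele medians ranged from -0.13 to 0.87 for CCAT2-G against WT, 0.018 to 0.64 for CCAT2-T against WT and -0.29 to 0.53 (without CCAT2-G replicate 3) for CCAT2-G against CCAT2-T. Of 1440 single-gene values under alternatives, 115 turned in sign, 0 of them in CCAT2-GT against DRAI-, 2 in CCAT2-GT against WT and 113 in the other 4 comparisons, where every main difference was at most about 1 SE. The filters, the eBayes variants and the groups kept in the model leave a difference of means unchanged, so no sign could turn there. Leaving out the stroma-rich arrays also repeats leaving out WT replicate 4 when DRAI-, CCAT2-G or CCAT2-T is compared with WT. Depth does not apply to arrays, and all 9 genes lay above the filter. The mouse numbers of the titles name no shared animal. Same-numbered mice of different groups deviated together in 11 of 24 pairs at a correlation over 0.1, and differently numbered mice in 34 of 96. The mean correlations were 0.149 and -0.035. Among the 4 or 6 mice of another group, a mouse correlated best with the one of its own number in 13 of 48 checks. With the replicate block the medians were -1.12 for CCAT2-GT against WT, -1.46 for CCAT2-GT against DRAI-, 0.32 for DRAI- against WT, 0.35 and 0.36 for CCAT2-G and CCAT2-T against WT and -0.12 between the alleles, with 0 members called in each.

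Values that turned in sign were as follows, and the cause was not tested. Without the narrow arrays, CCAT2-GT minus WT was 0.030 for Blnk and 0.13 for Cd37. With array weights, DRAI- minus WT was -0.25 for Cd79a, -0.19 for Cd79b, -0.28 for Ms4a1, -0.11 for Cd22, -0.16 for Blnk, -0.095 for Tnfrsf13c, -0.13 for Cd37 and -0.21 for Fcmr. CCAT2-G minus WT was -0.24 for Cd79a, -0.17 for Cd79b, -0.15 for Ms4a1, -0.10 for Cd22, -0.12 for Blnk, -0.084 for Ltb, -0.039 for Tnfrsf13c, -0.27 for Cd37 and -0.22 for Fcmr. CCAT2-T minus WT was -0.18 for Cd79a, -0.14 for Cd79b, -0.27 for Ms4a1, -0.11 for Cd22, -0.075 for Blnk, -0.12 for Tnfrsf13c, -0.035 for Cd37 and -0.16 for Fcmr. CCAT2-G minus CCAT2-T was -0.060 for Fcmr. Leaving out the 3 stroma-rich arrays removes only WT replicate 4 from the comparisons of DRAI-, CCAT2-G and CCAT2-T with WT. DRAI- minus WT was then -0.037 for Cd79b, -0.13 for Ms4a1, -0.027 for Cd22, -0.091 for Blnk, -0.063 for Ltb and -0.17 for Fcmr. CCAT2-G minus WT was -0.13 for Cd79a, -0.14 for Cd79b, -0.036 for Ms4a1, -0.023 for Cd22, -0.16 for Blnk, -0.17 for Ltb, -0.023 for Cd37 and -0.16 for Fcmr. CCAT2-T minus WT was -0.22 for Ms4a1, -0.031 for Cd22, -0.018 for Blnk and -0.19 for Fcmr. Within the 5 narrow arrays, DRAI- minus WT was -0.17 for Cd79a, -0.054 for Cd79b, -0.065 for Ms4a1, -0.082 for Blnk, -0.050 for Cd37 and -0.014 for Fcmr. With quantile normalization on top, CCAT2-G minus CCAT2-T was -0.045 for Cd22, -0.0050 for Tnfrsf13c and -0.012 for Fcmr. With the probeset of largest interquartile range, CCAT2-G minus CCAT2-T was -0.0085 for Ms4a1. With sex from Xist as a covariate, CCAT2-G minus CCAT2-T was -0.019 for Cd22. Without the 4 arrays with high Xist, CCAT2-G minus CCAT2-T was -0.18 for Ms4a1, -0.18 for Cd22, -0.17 for Tnfrsf13c and -0.31 for Fcmr. With the narrow arrays as a block, CCAT2-G minus CCAT2-T was 0.14 for Cd79a, 0.10 for Cd79b, 0.13 for Blnk and 0.069 for Cd37. Leaving out each mouse in turn, DRAI- minus WT ranged from -0.091 to 0.53 for Blnk, -0.037 to 0.61 for Cd79b, -0.13 to 0.73 for Ms4a1, -0.027 to 0.63 for Cd22, -0.063 to 0.35 for Ltb and -0.17 to 0.77 for Fcmr. CCAT2-G minus WT ranged from -0.14 to 0.82 for Cd79b, -0.16 to 0.77 for Blnk, -0.13 to 1.48 for Cd79a, -0.036 to 1.06 for Ms4a1, -0.023 to 0.87 for Cd22, -0.17 to 0.24 for Ltb, -0.023 to 0.48 for Cd37 and -0.16 to 0.91 for Fcmr. CCAT2-T minus WT ranged from -0.22 to 0.64 for Ms4a1, -0.031 to 0.62 for Cd22, -0.018 to 0.60 for Blnk and -0.19 to 0.76 for Fcmr. CCAT2-G minus CCAT2-T ranged from -0.18 to 0.84 for Ms4a1, -0.29 to 0.53 for Cd22, -0.26 to 0.66 for Tnfrsf13c, -0.31 to 0.53 for Fcmr, -0.72 to 0.61 for Cd79a, -0.47 to 0.42 for Cd79b, -0.40 to 0.47 for Blnk and -0.29 to 0.050 for Cd37.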
